A study of Homo sapiens with 6 samples.

Results

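The expression of 10 genes that mark or drive the epithelial-mesenchymal transition was followed in HCT116 cells transfected with a miR-8485 mimic. They were chosen by name: the cadherins CDH1, CDH2 and CDH3, the epithelial surface protein EPCAM, the mesenchymal genes VIM and FN1, and the transcriptional repressors SNAI1, SNAI2, ZEB1 and ZEB2. All 10 were among the 58735 genes of the expression table. HCT116 is an established human colorectal cancer line, labelled WT for genotype, and a single line stands for colorectal cancer here. The 3 control (CTR) libraries came from cells that received a control transfection, whose sequence and dose are not given in the sources used here. The 3 miR-8485 libraries came from cells given 50 nM of the mimic. The study's methods have cells collected 48 h after transfection or at other stated times, and name no time for the RNA-seq itself. The comparison asks how the genes respond to added miR-8485.

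In an epithelium, CDH1 (E-cadherin) joins neighbouring cells at adherens junctions and is tied through catenins to actin. During the epithelial-mesenchymal transition, repressors of the SNAI and ZEB families bind E-box elements and silence CDH1 and other epithelial genes, while CDH2 (N-cadherin), VIM (vimentin, an intermediate filament) and FN1 (fibronectin, a matrix protein) are gained and cells become more motile. In carcinomas the transition is often partial, and it is studied in colorectal cancer for its link with invasion.

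Values are FPKM, that is fragments scaled by gene length and by the size of the library, which gives each gene relative to the rest of its library. In bulk RNA, fewer cells that express a gene and less RNA per cell cannot be told apart. The libraries held 17473874 to 18480047 fragments on listed genes, and the first principal component, with 62.7% of the variance, separated the CTR from the miR-8485 libraries. Of the 12349 genes tested, those averaging 1 FPKM or more over the libraries, 59.6% were called at an adjusted p under 0.05 (limma), 29.1% higher and 30.5% lower in miR-8485, so that a call on its own was common. Among the 12 colorectal epithelial markers, the summed level was 2470 to 2670 FPKM in CTR and 1610 to 1690 in miR-8485. Nearly all of this sum was KRT8, KRT18 and KRT19. Of the 12 markers, KRT8 was at 543 to 873 FPKM over the 6 libraries, KRT18 at 286 to 609 and KRT19 at 747 to 1230. CDX2 was at 15.5 to 29.4, while VIL1 stayed between 0 and 0.0639 and CDH17 between 0.0284 and 0.17. CDX1 was at 0 to 0.0314, LGALS4 at 0 to 0.0836, CEACAM5 at 0 to 0.047 and GPA33 at 0.0518 to 0.191. The line thus carried epithelial keratins and CDX2, but 7 of the 12 markers lay below the filter. VIL1, CDH17, CDX1, LGALS4, CEACAM5 and GPA33 were almost absent. Of the 10 fibroblast markers, 9 lay below the filter and 2 of those were at 0 in every library. Their summed level was 4.31 to 4.54 FPKM in CTR and 6.36 to 6.56 in miR-8485, nearly all of it COL1A1 (4.05 to 4.38 and 6.27 to 6.4), with PDGFRA at 0 to 0.0114 over all libraries. The part of these differences in the results on the members was not tested. None of the 7 leukocyte or 5 endothelial markers reached the filter, and PTPRC was at 0 to 0.00603 FPKM.

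The mimic is shown first, because its seed defines what can be searched for in the members. Capitals mark the seed, bases 2 to 8 from the 5′ end, and a perfect match to it in a transcript reads TGTGTGT.
miR-8485 mimic: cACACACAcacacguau
The 3′ UTRs of the members (canonical transcript, GENCODE 44, GRCh38) were searched on the transcribed strand for TGTGTGT, counting overlapping matches. CDH1, VIM, FN1, SNAI1, SNAI2 and ZEB1 held none, in 3′ UTRs of 322 to 2540 bases. EPCAM and CDH2 each held 1 match, CDH3 held 2 and ZEB2 held 5. Among tested genes with a canonical 3′ UTR, 3086 of 10675 (28.9%) held at least 1. The first match in each of the 4 members is printed here with 11 bases on either side, on the gene's own strand, with the match in capitals.
CDH3, chr16:68699651-68699679, plus strand: ttttttttgagTGTGTGTgtttttttagt
EPCAM, chr2:47386660-47386688, plus strand: caaattacaaaTGTGTGTgcgtgggacga
CDH2, chr18:27951099-27951127, minus strand: gcactactaagTGTGTGTttttttaaaaa
ZEB2, chr2:144387058-144387086, minus strand: gaaagtgtgtaTGTGTGTgtgtgtatata
The ZEB2 match lies within a run of 13 alternating T and G. The CDH3 match lies within a run of 10, flanked by runs of T. Overlapping matches within such a run are not separate sites, so that the counts for CDH3 and ZEB2 overstate the number of sites. A match is a description of these letters, and its use by the mimic was not measured.

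The levels of the members covered a wide range (plot of the members by library). EPCAM was the highest, between percentiles 97.8 and 98.1 of the tested genes, and CDH1 lay between percentiles 80.6 and 82.0. CDH3 was above CDH1 in every library. SNAI1 was the only repressor with a mean of at least 1 FPKM. FN1 was close to 1 FPKM, and VIM, ZEB1, SNAI2, CDH2 and ZEB2 were below the filter. In CTR the order from high to low was EPCAM, CDH3, CDH1, SNAI1, FN1, SNAI2, ZEB1, VIM, CDH2 and ZEB2. The neighbours SNAI2, ZEB1 and VIM did not differ beyond their spread, and CDH2 and ZEB2 were both at or near 0.

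**Figure D1:**
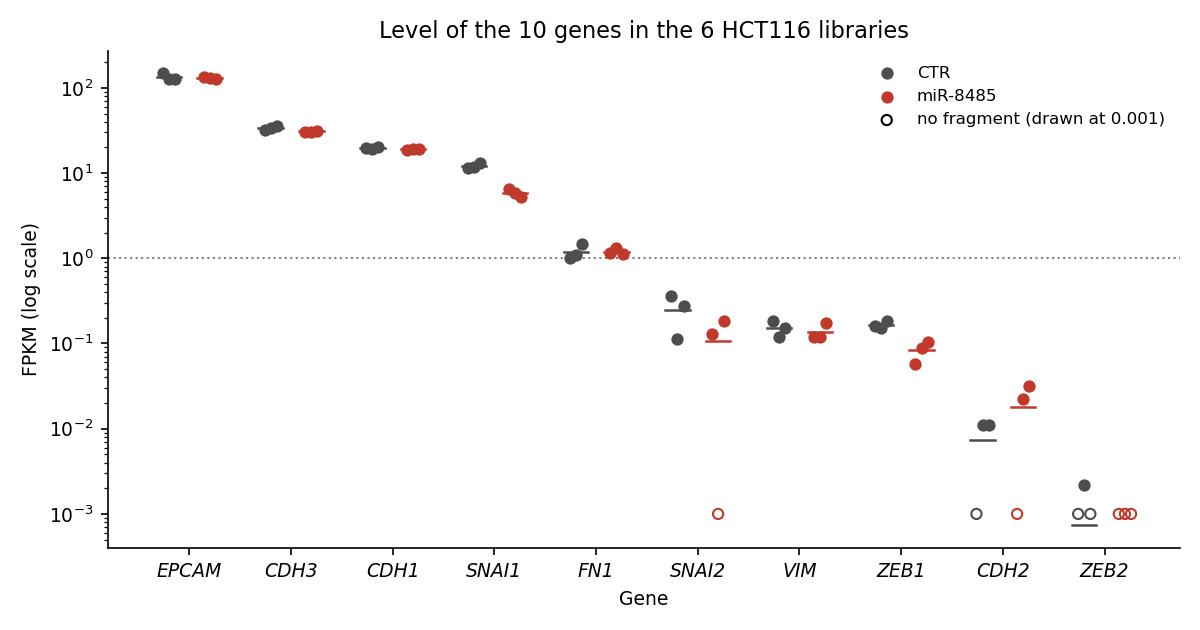
FPKM on a log axis of the 10 members in each of the 3 CTR and 3 miR-8485 libraries, with the group means as bars, the dotted line at 1 FPKM and open circles for libraries with no fragment. EPCAM, CDH3 and CDH1 lie far above the filter, SNAI1 is the only repressor above it, and only SNAI1, CDH3 and ZEB1 have groups that do not overlap.

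Of the 10 members, 1 was called lower in miR-8485, SNAI1, and none was called higher by limma. The remaining 9 were not called. At an unadjusted p under 0.05, limma gave 2 members lower and 0 higher, and voom on the recovered fragments gave 4 lower and 0 higher. After adjustment, voom called 2 lower and 0 higher. Among the 5 members that passed the filter, 1 (20%) was called, against the 59.6% of all tested genes. None of the 5 below it was called in the fit of all 31768 genes above 0, of which 22.1% were called. The groups did not overlap for 2 of the 5 members that passed (SNAI1 and CDH3), against 66.5% of tested genes, and for 1 of the 5 below (ZEB1), against 34.6% of all genes above 0. The median log2 fold change of the 5 tested members was -0.05, and the median of its absolute value 0.05, beside -0.0041 and 0.33 over all tested genes.

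CDH1 (ENSG00000039068, GRCh38 chromosome 16, 68737225 to 68835548, plus strand) is the E-cadherin gene and the classical target of the SNAI and ZEB repressors. It was at 19.8, 19.0 and 20.4 FPKM in the 3 CTR libraries and at 18.7, 19.2 and 19.2 in the 3 miR-8485 libraries, with 2075 to 2276 fragments in each. The groups overlapped. The mean was 19.7 ± 0.694 FPKM in CTR and 19.0 ± 0.297 in miR-8485 (SD, n = 3), a log2 fold change of -0.05 (SE 0.05, adjusted p = 0.378, limma). The 95% interval of the difference allowed a level of 89.8% to 104% of CTR, so that a change of the size seen for SNAI1 lies outside it. The genes whose profile over the 6 libraries was most like that of CDH1 were SUMO3, MCOLN1 and RNF4. Their root mean square differences on the log2 scale, centred on CTR, were 0.0181, 0.0191 and 0.0203, out of 10721 protein-coding genes compared. As CDH1 hardly moved between the groups, this likeness cannot be read as shared behaviour.

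CDH3 (P-cadherin, ENSG00000062038), the neighbour of CDH1 on chromosome 16 (68636189 to 68722616, plus strand), is a second classical cadherin of epithelial cells. It was at 32.2, 33.5 and 36.0 FPKM in CTR and at 30.4, 30.5 and 31.4 in miR-8485. The groups did not overlap, but the step between them was small. The mean was 33.9 ± 1.9 and 30.8 ± 0.546 FPKM (SD, n = 3), and the log2 fold change was -0.14 (SE 0.05), with an adjusted p of 0.0503 by limma and 0.0323 by voom. Over all alternatives the adjusted p ran from 0.00626 to 0.151, so that the call depended on the setting. The largest of these was reached without CTR replicate 3, where the log2 fold change was -0.09 (adjusted p = 0.151), and the call was made without CTR replicate 1 (-0.17, adjusted p = 0.0183).

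CDH2 (N-cadherin, ENSG00000170558, chromosome 18, 27950966 to 28177446, minus strand), the cadherin gained in the transition, was almost without signal. Its fragments numbered 0, 1 and 1 in CTR and 0, 2 and 3 in miR-8485. A library with 0 fragments allows up to 3 fragments, or 0.034 FPKM, counting error only. No fold change is given at this depth. CDH2 thus had at most 3 fragments in a library in which CDH1 had at least 2075.

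EPCAM (ENSG00000119888, chromosome 2, 47345158 to 47387601, plus strand) encodes an adhesion protein of simple epithelia that serves as a carcinoma marker. It was at 148, 128 and 128 FPKM in CTR and at 134, 129 and 127 in miR-8485, each from 5836 to 6742 fragments. CTR replicate 1 was the highest and the other libraries lay close together, with overlapping groups. The mean was 135 ± 11.7 FPKM in CTR and 130 ± 3.48 in miR-8485 (SD, n = 3), a log2 fold change of -0.05 (SE 0.06, adjusted p = 0.55, limma), with a 95% interval of 87.2% to 107% of CTR. Without CTR replicate 1 the log2 fold change was 0.02.

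Vimentin, an intermediate filament of mesenchymal cells, was nearly absent from the libraries of both groups. VIM (ENSG00000026025, chromosome 10, 17228259 to 17237593, plus strand) had 17, 11 and 14 fragments in CTR and 11, 11 and 17 in miR-8485. The groups overlapped. In FPKM these were 0.183, 0.118 and 0.15 against 0.119, 0.118 and 0.173, with means of 0.15 ± 0.0324 and 0.137 ± 0.0316 (SD, n = 3). The log2 fold change of VIM was -0.08 (SE 0.30, adjusted p = 0.879, limma). Its 95% interval, 57.3% to 156% of CTR, holds for FPKM + 0.1 and is too narrow for the level of VIM itself. By voom the log2 fold change was -0.14 (95% interval -1.06 to 0.79), so that changes of moderate size were undetectable. The profiles most like that of VIM, by the same measure, were those of C11orf74 (0.0348), PRRT4 (0.0363) and FAM133B (0.0659). With 11 to 17 fragments of VIM per library, its profile holds much counting error, so that this likeness cannot be read as shared behaviour.

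FN1 (ENSG00000115414, chromosome 2, 215360440 to 215436172, minus strand), which encodes fibronectin, was low but measurable. It was at 1.0, 1.09 and 1.48 FPKM in CTR, from 313 to 465 fragments, and at 1.14, 1.32 and 1.12 in miR-8485, from 353 to 412. The miR-8485 values fell inside the range of the CTR values. Both means were 1.19 FPKM, with an SD of 0.257 in CTR and 0.107 in miR-8485 (n = 3), and the log2 fold change was 0.02 (SE 0.19, adjusted p = 0.949, limma), with a 95% interval of 73.9% to 138% of CTR.

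The repressors gave the one called change among the members. SNAI1 (Snail, ENSG00000124216, chromosome 20, 49982999 to 49988886, plus strand) encodes a zinc finger protein that binds the CDH1 promoter and recruits corepressors. It was at 11.4, 11.7 and 13.3 FPKM in CTR, from 346, 358 and 406 fragments. In miR-8485 it was at 6.47, 5.90 and 5.29 FPKM, from 196, 180 and 170 fragments. All miR-8485 libraries lay well below all CTR libraries. The mean fell from 12.1 ± 1.02 to 5.89 ± 0.589 FPKM (SD, n = 3), which is 48.5% of CTR. The log2 fold change was -1.03 (SE 0.09, adjusted p = 6.59e-05, limma), with a 95% interval of 42.2% to 56.6% of CTR, and voom gave -1.04 (SE 0.12). SNAI1 was called under every alternative run, with an adjusted p of at most 0.000616 and a log2 fold change of -1.10 to -0.96 with any 1 library left out. Of the 12349 tested genes, 554 (4.5%) had a lower log2 fold change. The 3′ UTR of SNAI1 in the canonical transcript, 830 bases long, held no match to the seed. The processed pseudogene SNAI1P1 had no fragment in any library.

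**Figure D2:**
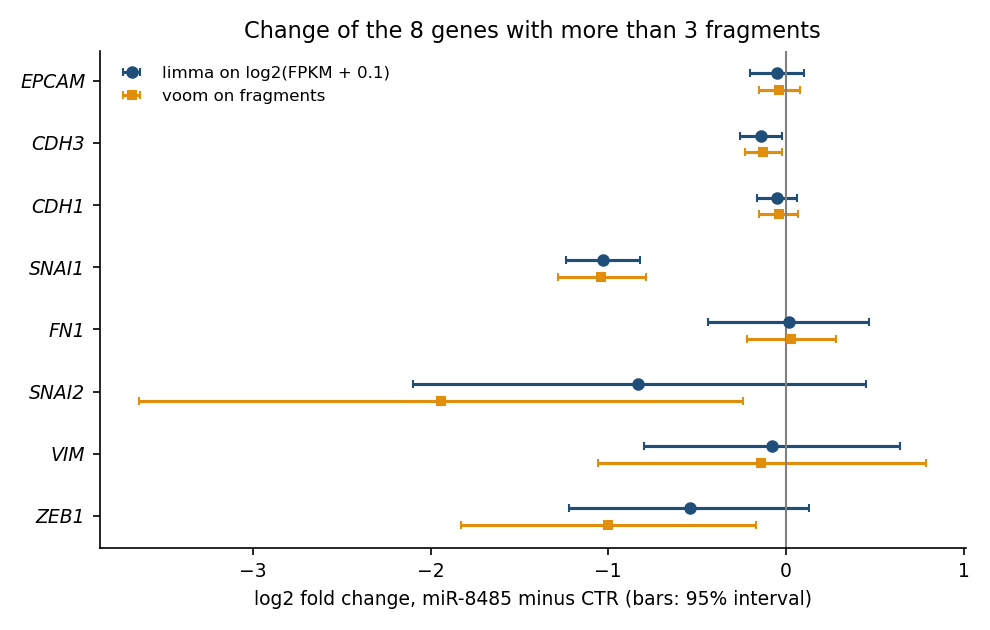
Log2 fold change, miR-8485 over CTR, with 95% intervals, for the 8 members with more than 3 fragments in a library, from limma on log2(FPKM + 0.1) (circles) and from voom on recovered fragments (squares). SNAI1 lies near -1 by both, CDH1, CDH3, EPCAM and FN1 lie near 0, and the intervals of VIM, ZEB1 and SNAI2 are wide.

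ZEB1 (ENSG00000148516, chromosome 10, 31318495 to 31529814, plus strand) encodes a zinc finger and homeodomain repressor that opposes the miR-200 family. It had 25, 24 and 29 fragments in CTR and 9, 14 and 17 in miR-8485. The groups did not overlap. The mean was 0.166 ± 0.0168 FPKM in CTR and 0.0835 ± 0.0232 in miR-8485 (SD, n = 3), or 50.2% of CTR, and the log2 fold change on the log2(FPKM + 0.1) scale, which understates changes of low genes, was -0.54 (SE 0.28). ZEB1 was not called, with an adjusted p of 0.258 by limma and 0.07 by voom, which gave a log2 fold change of -1.0 (SE 0.40). It was called under 1 alternative only, without a variance trend (adjusted p = 0.0403). ZEB1-AS1, an antisense gene that overlaps the start of ZEB1 on the other strand, had 28, 33 and 30 fragments in CTR and 62, 58 and 68 in miR-8485. It rose by a log2 fold change of 0.88 (SE 0.20, adjusted p = 0.0224, limma) in the fit of all genes above 0, and was named after its values were seen. This call ended when miR-8485 replicate 1 was left out (adjusted p = 0.053), and also when replicate 3 was left out (0.0515). Whether fragments were counted by strand is not given in the sources used here. Without strand, fragments of the overlapping part cannot be assigned to either gene, so that both values are uncertain there.

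SNAI2 (Slug, ENSG00000019549, chromosome 8, 48917604 to 48921740, minus strand) is the paralog of SNAI1 and also represses CDH1. It had 22, 7 and 17 fragments in CTR and 8, 0 and 12 in miR-8485. The groups overlapped and the CTR libraries themselves spread widely. In FPKM, SNAI2 was at 0.360, 0.114 and 0.277 in CTR and at 0.131, 0 and 0.186 in miR-8485. The value of 0 in miR-8485 replicate 2 allows up to 3 fragments, or 0.049 FPKM. The mean was 0.25 ± 0.125 FPKM in CTR and 0.106 ± 0.0955 in miR-8485 (SD, n = 3), with a log2 fold change of -0.83 (SE 0.53, adjusted p = 0.377, limma) and, by voom, of -1.94 (SE 0.82, adjusted p = 0.0896). Without miR-8485 replicate 2 the log2 fold change was -0.38 and without CTR replicate 2 it was -1.15, and in neither case was SNAI2 called.

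ZEB2 (ENSG00000169554, chromosome 2, 144364364 to 144524583, minus strand), the second ZEB repressor, had 1 fragment in CTR replicate 2 and none in the other libraries. A count of 0 allows up to 3 fragments, which is 0.0063 to 0.0067 FPKM in these libraries. It could not be compared between the groups at this depth, although its 3′ UTR held the most matches to the seed among the members, counted with overlaps.

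**Figure D3:**
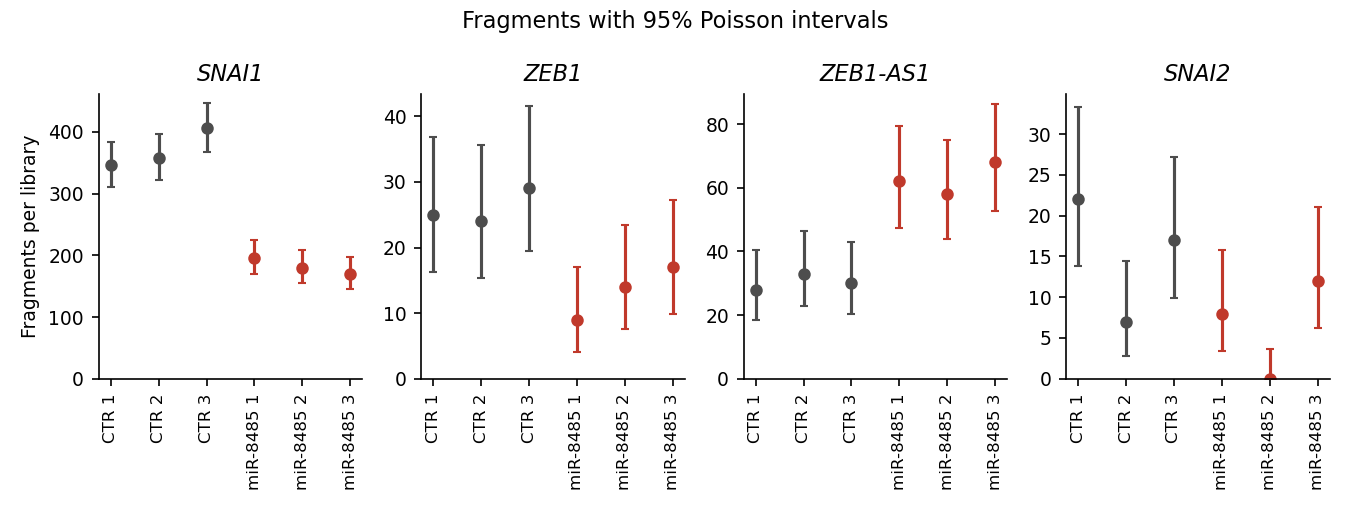
Recovered fragments per library of SNAI1, ZEB1, the antisense gene ZEB1-AS1 and SNAI2 in CTR and miR-8485, with exact 95% Poisson intervals that cover counting error only. SNAI1 moves from 346 to 406 fragments down to 170 to 196, ZEB1 from 24 to 29 down to 9 to 17, ZEB1-AS1 from 28 to 33 up to 58 to 68, and the SNAI2 libraries overlap.

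Pairs of members were also compared as ratios within a library, with 0.1 FPKM added to each gene before the ratio was taken. The log2 ratio of CDH3 to CDH1, on this scale, was 0.78 ± 0.07 in CTR and 0.69 ± 0.02 in miR-8485 (SD, n = 3), a difference of -0.09 (two-sided exact permutation test, p = 0.3). That of VIM to CDH1 was -6.32 ± 0.16 and -6.35 ± 0.18, a difference of -0.03 (two-sided exact permutation test, n = 3, p = 0.7). As VIM was at 0.118 to 0.183 FPKM, the added 0.1 makes up a large part of this ratio, and with 1 FPKM added the difference was 0.03. The ratio of SNAI1 to CDH1, added after the values were seen, was -0.79, -0.69 and -0.61 in CTR and -1.52, -1.69 and -1.84 in miR-8485. Its groups did not overlap, with a difference of -0.98 (two-sided exact permutation test, p = 0.1, the smallest that 3 against 3 libraries allow). As CDH1 hardly moved, this ratio repeats the SNAI1 values, and its p adds no separate evidence. In each miR-8485 library the repressor stood lower relative to CDH1 than in any CTR library, while CDH1 itself was not called.

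Of 18 genes of epithelial adhesion and polarity, the junction partners of the cadherins among them, 4 rose, 7 fell and 7 were not called, with a median log2 fold change of -0.05. All 18 were tested, and these counts are near the shares of all tested genes, 29.1% higher and 30.5% lower, so that they are no result about the list. The 4 that rose were PERP, JUP, NECTIN4 and PKP2, the last named after its values were seen. PERP, a desmosomal membrane protein, rose from 73.8 ± 2.33 to 109 ± 1.29 FPKM (log2 fold change 0.57). JUP (plakoglobin), which binds cadherins at adherens junctions and desmosomes and had the highest level of the list, rose from 113 ± 5.44 to 149 ± 1.87 (0.41). NECTIN4 rose from 3.47 ± 0.0578 to 4.36 ± 0.165 (0.32). Among those that fell, NECTIN1, an immunoglobulin-like adhesion receptor of adherens junctions, fell from 7.67 ± 0.863 to 2.88 ± 0.224 (-1.38, adjusted p = 2.75e-05, limma). AFDN (afadin), which links nectins to actin, fell from 3.39 ± 0.202 to 2.32 ± 0.101 (-0.53). The catenin genes CTNNB1, CTNNA1 and CTNND1 were named after their values were seen. CTNNB1 (beta-catenin) fell from 34.7 ± 0.203 to 30.3 ± 0.228 FPKM (-0.20, adjusted p = 0.00292), and CTNNA1 (-0.12, adjusted p = 0.0646) and CTNND1 (0.06, adjusted p = 0.417) were not called by limma.

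Of 19 regulators and surface genes of the epithelial state, 17 were tested, of which 5 rose, 5 fell and 7 were not called, with a median log2 fold change of -0.02. These counts too are near the 29.1% higher and 30.5% lower of all tested genes. ESRP2, a splicing regulator of epithelial isoforms, rose from 10 ± 0.464 to 16.7 ± 0.529 FPKM (0.73, adjusted p = 2.97e-05, limma). GRHL2, a grainyhead factor that activates CDH1, rose from 4.69 ± 0.445 to 7.11 ± 0.277 (0.59), CD24 from 9.31 ± 0.565 to 13.4 ± 0.833 (0.52), and MAL2, the highest of the list, from 153 ± 3.76 to 195 ± 4.08 (0.34). RAB25 (0.35) was the other gene that rose and was named after its values were seen. KLF4, a factor of differentiated gut epithelium, fell from 19.6 ± 0.373 to 9.79 ± 0.867 (-1.0, adjusted p = 2.45e-05, limma), OVOL1 from 6.89 ± 0.517 to 4.14 ± 0.695 (-0.73) and ST14 (matriptase) from 86.1 ± 1.73 to 53.3 ± 1.93 (-0.69). ELF3 (-0.63) and SPINT1 (-0.17, adjusted p = 0.0455) were the others that fell, both named after their values were seen. SPINT1 lost its call under 9 alternatives.

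Of 30 mesenchymal genes, 12 were tested, of which 9 fell, 2 rose and 1, MMP14, was not called (0.16, adjusted p = 0.112). Over all tested genes, 30.5% were called lower and 29.1% higher. The median log2 fold change of the 12 was -0.48, beside -0.0041 over all tested genes. As the list was chosen with earlier results of these data known, its counts are not independent evidence. The other 18 lay below the filter, and 5 of the 30, TWIST2, PRRX1, CDH11, CDH6 and DCN, had no fragment in any library. SNAI3, the third member of the Snail family, fell from 4.42 ± 0.194 to 2.44 ± 0.559 FPKM (-0.85, adjusted p = 0.00221, limma), and the forkhead factor FOXC1 from 13.6 ± 0.555 to 8.11 ± 0.474 (-0.74). LGALS1 (galectin-1), the highest of the list, fell from 403 ± 23.1 to 286 ± 17.0 (-0.50). Several that fell, such as CD44 (-0.55), AXL (-0.70) and S100A4 (-0.34), named after their values were seen, are also made by carcinoma cells. The 2 that rose were ACTA2 (smooth muscle actin), from 0.973 ± 0.156 to 2.57 ± 0.0341 (1.33, adjusted p = 0.000184, limma), and COL1A1, from 4.25 ± 0.173 to 6.31 ± 0.077 (0.56), which is itself a fibroblast marker. Its partner chain COL1A2 was at 0 to 0.00497 FPKM over the 6 libraries. ACTA2 averaged under 1 FPKM in CTR and passed the filter only through its miR-8485 libraries. The count of genes that rose therefore depends partly on the filter.

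Of 22 cofactors and modifiers of the SNAI and ZEB proteins, 21 were tested, of which 13 fell and 3 rose, with a median log2 fold change of -0.30. FBXL14, a ubiquitin ligase subunit that targets Snail for degradation, fell from 7.64 ± 1.47 to 2.28 ± 0.462 FPKM (-1.70, adjusted p = 0.000162, limma). GSK3B (-0.32, adjusted p = 0.00712), a kinase that marks Snail for degradation, and BTRC (-0.30, adjusted p = 0.00337), a ubiquitin ligase subunit that binds the marked protein, both named after their values were seen, fell too. LOXL2, which stabilises Snail, fell from 13.6 ± 0.556 to 5.66 ± 0.382 (-1.25, adjusted p = 7.95e-06, limma), and LIMD1, a LIM protein that binds Snail, from 3.63 ± 0.12 to 1.62 ± 0.179 (-1.12). AJUBA, a relative of LIMD1 and also a Snail corepressor, rose from 9.23 ± 0.638 to 17.5 ± 0.468 (0.91, adjusted p = 1.98e-05, limma). The other 2 that rose were CSNK1E (0.25, adjusted p = 0.0186) and KDM1A, from 47.8 ± 1.12 to 51.5 ± 0.466 (0.11, adjusted p = 0.0422), the histone demethylase recruited by Snail, whose mean over the 6 libraries was the highest of the list. The call of CSNK1E was lost under 3 alternatives and that of KDM1A under 9, among them rescaling to TPM, which turned it to -0.01. The list holds genes that stabilise Snail and genes that lead to its degradation, and its counts stand beside 29.1% of tested genes higher and 30.5% lower. This list too was chosen with earlier results of these data known.

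**Figure D4:**
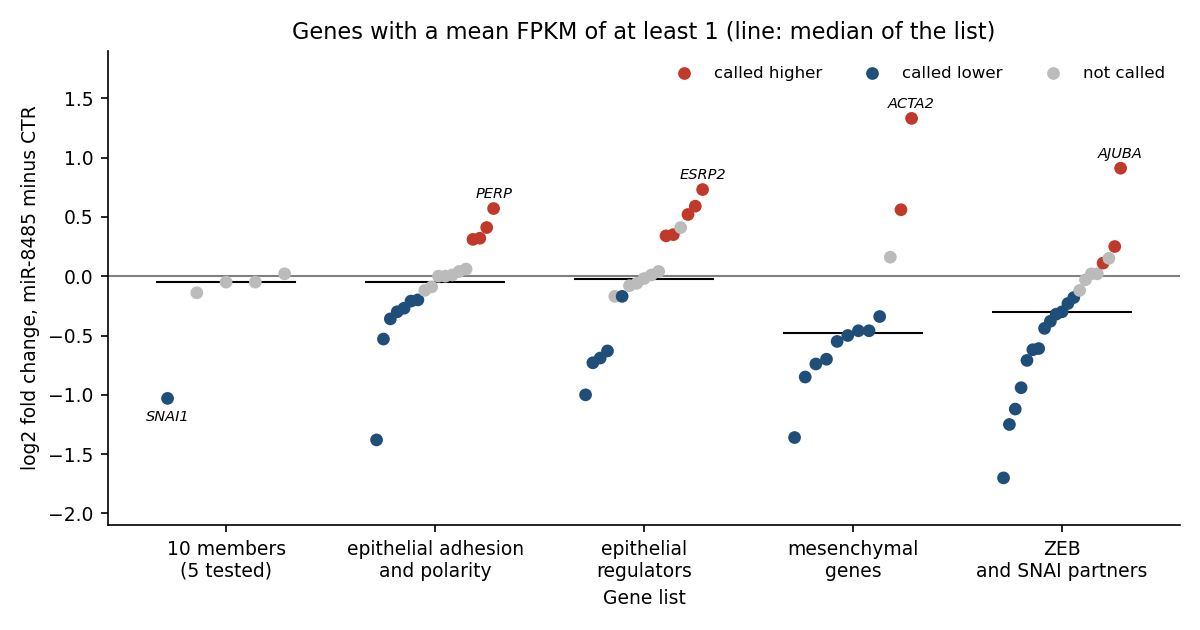
Log2 fold change, miR-8485 over CTR, of the 5 tested members and of the tested genes of the 4 lists, each point a gene coloured by its call and each line the median. The medians are -0.05, -0.05, -0.02, -0.48 and -0.30, and SNAI1 is the one called member.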

How the data were processed

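RNA-seq was performed on 6 HCT116 libraries, 3 CTR and 3 miR-8485, described in the study's methods as independent biological replicates. The authors trimmed reads with fastp, aligned them to hg38 with HISAT2 2.0.5, counted fragments with featureCounts 1.5.0-p3 and tested counts with DESeq2; tools and build follow the submitters' processing notes and the study's methods. The deposited values used here were FPKM per gene, not scaled further between libraries. The annotation release and the strand setting of the counting are not given in the sources used here. There were 0 columns of measurements without a sample.

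FPKM was multiplied by gene length and a library total, which gave whole fragments (within 0.01) for 100% of values, and these are the fragments quoted. Depth was 17473874 to 18480047 fragments per library. Precision follows from a gene's own fragments, and Poisson intervals and the floor of 3 fragments cover counting error only.

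limma 3.58.1 (R 4.3.3) with a variance trend was fitted to log2(FPKM + 0.1) of the 12349 genes averaging 1 FPKM or more, two-sided, with Benjamini-Hochberg adjustment over all of them and a threshold of 0.05. Genes below this filter, OVOL2, TWIST1, TNC, MUC13 and ZEB1-AS1 included, come from a fit to all 31768 genes above 0. Ratios were tested by exact permutation, which cannot go below p = 0.1; the ratio of CDH2 to CDH1 was planned and is not given, as CDH2 had at most 3 fragments. Scripts were tested on simulated data. For limma and voom this covered genes that passed the filter, with far fewer changed genes than were called here. Seed matches were read from GENCODE 44; Python 3.11.15 was used with scipy 1.17.1, pandas 2.3.3, matplotlib 3.10.9 and numpy 2.4.6.

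The members, lists and tests were chosen with earlier results of these data known. Named were all 10 members; from each list the 3 tested genes with the largest change called in each direction whose groups did not overlap, and the gene with the highest level; and the 3 protein-coding genes most like CDH1 and VIM. A few genes that this rule selects are counted in their lists but not reported here. Other genes were named after their values were seen. Alternatives were pseudocounts of 1 and 0.01, no filter, a filter at 5 FPKM, median-of-ratios scaling, rescaling to TPM, no variance trend, voom on recovered fragments, a replicate block, and each library left out.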

Additional observations from a re-analysis of the deposited data

How the results depend on the processing

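SNAI1 was called lower under every alternative run, and no member was called higher under any. The number of members called lower, 1, became 2 with a pseudocount of 1 or 0.01, without a variance trend, with voom, with a filter at 5 FPKM and with the replicate block, and 3 after rescaling to TPM, which added CDH3 and CDH1 (-0.16, adjusted p = 0.0449). The added member was CDH3 in each of these except the fit without a variance trend, where it was ZEB1. With 1 library left out it ran from 1 to 2. TPM shifted the median over all tested genes to -0.1184 (log2) and moved the calls over all tested genes from 3593 higher and 3769 lower to 2613 and 4725. Mesenchymal genes called higher went from 2 to 1 with a filter at 5 FPKM. SNAI and ZEB cofactors called higher went from 3 to 1 under TPM, and ran from 1 to 3 with 1 library left out, being 1 without CTR replicate 2 and without miR-8485 replicate 1. The difference in the log2 ratio of VIM to CDH1 was 0.03 with a pseudocount of 1 and ran from -0.13 to 0.06 with 1 library left out, changing sign without CTR replicate 1 (0.06), miR-8485 replicate 1 (0.01) or miR-8485 replicate 2 (0.03). Log2 fold changes near 0 also changed sign: EPCAM (0.02) and VIM (0.01) without CTR replicate 1, FN1 under TPM (-0.09), without CTR replicate 1 (-0.09) or 2 (-0.04) or without miR-8485 replicate 2 (-0.05), and KDM1A (-0.01) and CTNND1 (-0.05) under TPM. With 1 library left out, EPCAM ran from -0.08 to 0.02, VIM from -0.19 to 0.01 and FN1 from -0.09 to 0.17. The cause was not tested. Libraries with the same number did not deviate together (correlations 0.067, 0.033 and -0.064), so the block was not taken as a pairing; not every library correlated best with its own number. The block left SNAI1 called and ended the call of ZEB1-AS1 (adjusted p = 0.0699). For VIM, ZEB1, SNAI2, CDH2 and ZEB2, the number of fragments limits what can be detected.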

Other observations

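Genes of the lists that lay below the filter, named after their values were seen, are given as values. OVOL2, a repressor of ZEB1 in epithelia, had 14, 9 and 11 fragments in CTR and 71, 37 and 45 in miR-8485. All miR-8485 libraries were above all CTR libraries, and the mean of OVOL2 rose from 0.288 ± 0.0646 FPKM (SD, n = 3) to 1.28 ± 0.47. This was a rise of 1.79 on the log2 scale (SE 0.31, adjusted p = 0.00737, limma), against 22.1% of all genes above 0 called in this fit. Its paralog OVOL1 fell in the same libraries. TWIST1, a basic helix-loop-helix inducer of the transition, had 14, 13 and 24 fragments in CTR and 3, 3 and 8 in miR-8485. Its groups did not overlap, but it was not called (log2 fold change -1.34, SE 0.39, adjusted p = 0.0554, limma), and it was called by voom (adjusted p = 0.0201). TNC (tenascin-C), a matrix protein, had 2, 6 and 3 fragments in CTR and 18, 23 and 26 in miR-8485, with an adjusted p of 0.0362 by limma that ran to 0.106 over the alternatives.

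Of the 12 colorectal epithelial markers, 5 were tested, of which 3 fell and 2 rose, with a median log2 fold change of -0.58. Over all tested genes, 30.5% were called lower and 29.1% higher, with a median of -0.0041. The 5 genes are too few to read these counts as a result about the list. KRT18, a keratin of simple epithelia, fell from 572 ± 35.0 to 292 ± 5.61 FPKM (SD, n = 3, log2 fold change -0.97, adjusted p = 9.6e-06, limma), KRT8 by a log2 fold change of -0.62 and KRT19 of -0.58. CDX2, an intestinal homeobox factor, rose from 16.0 ± 0.486 to 28.2 ± 1.18 FPKM (0.81, adjusted p = 1.43e-05, limma). KRT20, a keratin of differentiated gut epithelium at a low level here, rose by 1.33 on the log2 scale (adjusted p = 0.00578, limma). With means of 0.73 FPKM in CTR and 2.02 in miR-8485, KRT20 passed the filter only through miR-8485, so that its place in the count depends on the filter. MUC13, a mucin below the filter although at a mean of 1.28 FPKM in CTR, was called lower (log2 fold change -0.91, adjusted p = 0.0171, limma). Its call ended with the replicate block (adjusted p = 0.058) and on leaving out CTR replicate 1 (0.0589), CTR replicate 3 (0.0637), miR-8485 replicate 1 (0.0545) or miR-8485 replicate 2 (0.0638). CDH1 and EPCAM were not called beside these changes.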
